A study of Mus musculus with 3 samples.

Results

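The clustered protocadherins are cadherin-type cell adhesion proteins whose genes lie side by side in 3 clusters, alpha, beta and gamma, on mouse chromosome 18. Members were chosen by name as the protein-coding genes called Pcdha, Pcdhb, Pcdhga, Pcdhgb or Pcdhgc followed by a number, which gave 44 of the 43346 genes measured (22032 of them protein-coding). These were 14 gamma genes (7 of type A, 6 of type B and 1 of type C), 22 beta genes and 8 alpha genes. RNA was measured by sequencing in 3 libraries of mesenchymal stem cells (MSCs), fibroblast-like cells of connective tissue that grow attached to plastic. They came from adult C57BL/6 fat pads and were grown in advanced MEM with fetal bovine serum. The study concerns transplanting such cells at a vascular access for haemodialysis. All 3 libraries belong to a single group with no transgene, treatment or control, so levels were compared between genes and between libraries only. Separate animals or cultures are not named in the labels, and SDs and p-values therefore measure only the spread between these samples, which may be technical.

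A clustered protocadherin binds the same protein on a neighbouring cell. In neurons, which the family is best known for, each cell expresses its own combination of members, and the match or mismatch of combinations lets branches of one cell recognise each other. Each alpha and gamma gene has a first exon of its own, the variable exon, which has its own promoter, encodes the extracellular domains and is spliced to constant exons that the whole cluster shares. Each beta gene is complete in its own exon and uses no constant exon. Promoter choice is known to depend on CTCF and cohesin, which bring a promoter to a distant enhancer, and on DNA methylation of the promoters left silent.

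By mm10 coordinates and the GENCODE M21 annotation, the alpha cluster spans chr18:36930184-37187661, the beta cluster chr18:37264938-37524479 and the gamma cluster chr18:37661793-37841873, all on the plus strand. The 14 alpha genes of the annotation share 2860 bases of constant exon (59, 89 and 2712 bases, the longest at chr18:37184946-37187657). The 22 gamma genes share 2116 bases (59, 89 and 1968 bases, the longest at chr18:37839903-37841870). The deposited table holds 58 rows of the 3 clusters by identifier, of which 14 fall outside the naming rule. Of these, 13 carry human-style symbols (6 are all called PCDHA9, 4 are all called PCDHGB6, and PCDHGA9, PCDHGA12 and PCDHGC5 are the others), and Pcdhgb8 is annotated as a polymorphic pseudogene. They include Pcdhac1, Pcdhac2, Pcdhgc3 and Pcdhgc5, the C-type genes other than Pcdhgc4, and are called by their GENCODE symbols below and not counted as members.

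Values are RPKM (reads per kilobase of gene model, scaled to library size) as deposited, given for libraries 1, 2 and 3 or as mean ± SD (n = 3). The steps between low values implied totals of 28791600, 32962000 and 32001200 reads. With these totals the values of all 58 cluster rows came out within 0.01 of a whole number of reads in every library, so inferred reads are given beside the levels. At this depth 3 reads in a gene model of 3000 bases give 0.0347, 0.0303 and 0.0312 RPKM, the floor under which such a gene was not detectable (counting error only). Markers were called detected at an RPKM of 1 or more in every library, which 47.4% of all protein-coding genes reached. All 10 MSC surface markers were detected, at a summed RPKM of 568 to 586. Of 10 neuron markers only Syn1 was detected (1.25 ± 0.0487), Dcx was at 0 and the list summed to 1.81 to 1.96. Among the other lists, 1 of 8 Schwann and glia markers (Mbp), 1 of 6 endothelial markers (Kdr; Cldn5 was at 0), 4 of 6 macrophage markers and all 6 mesothelial markers were detected, with summed RPKM of 3.27 to 3.67, 2.45 to 2.64, 36.4 to 38.5 and 183 to 201. Their part in the protocadherin levels was not tested.

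On the deposited scale the clusters stood far apart, with gamma high and both alpha and beta low. Detection was defined as an RPKM of 1 or more in all 3 libraries. It held for 16 of the 44 members, against 47.4% of all protein-coding genes. The 16 were all 14 gamma genes and the beta genes Pcdhb17 and Pcdhb22, and no alpha gene was among them. An RPKM of 10 or more in every library was reached by the same 14 gamma genes and by no other member, against 16.4% of protein-coding genes. At 0.1 or more the members were 34 (14 gamma, 12 beta and 8 alpha), against 59.1%. With thresholds of 0.5 and 2 the members counted were 18 and 14, against 51.9% and 40.5%. At 1 or more on a TPM scale (each library summing to the same total) only the 14 gamma genes were counted, against 35.4%. There Pcdhb17 had 0.670, 0.495 and 0.482 TPM and Pcdhb22 had 0.415, 0.406 and 0.389 TPM, so the detection of these 2 genes rests on the RPKM scale. The gamma levels include reads that can be common to all rows of the cluster. With these left out, as described below, 6 of the 14 gamma genes were at 1 or more in every library. In bulk RNA, expression in fewer cells and less RNA per cell cannot be told apart.

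**Figure D1:**
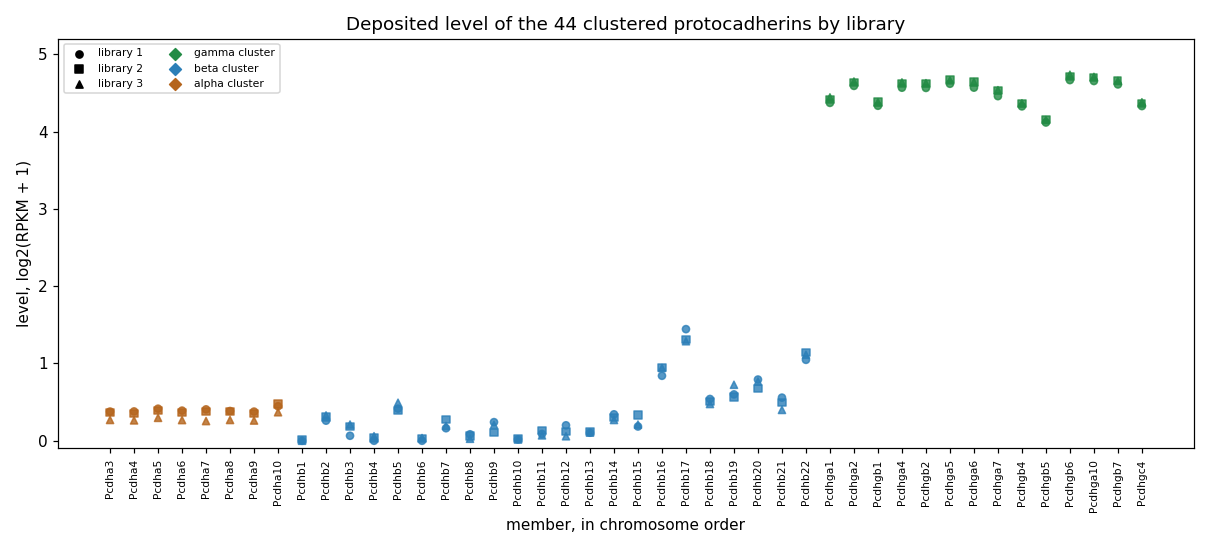
Deposited level of each of the 44 members on the log2(RPKM + 1) scale (vertical axis), in chromosome order (horizontal axis), with a symbol for each of the 3 libraries and a colour for each cluster. The 14 gamma genes lie between 16.4 and 25.6 RPKM in every library, and every alpha and beta gene lies at or below 1.72 RPKM.

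The gamma members had summed levels of 301, 313 and 314 RPKM (309 ± 7.02), the beta members 7.39, 7.39 and 7.33 RPKM (7.37 ± 0.0370), and the alpha members 2.54, 2.43 and 1.73 RPKM (2.23 ± 0.441). The gamma and alpha sums can count a read that is common to the cluster once for each member. The spread of a sum depends on the scale, and in TPM the beta sum was 2.60 ± 0.238. The log2 ratio of gamma over beta sums was 5.35, 5.40 and 5.42 (5.39 ± 0.04), and that of beta over alpha was 1.54, 1.60 and 2.09 (1.74 ± 0.30). Both ratios had the same sign in all 3 libraries and exceeded their SD, but 3 libraries cannot give a two-sided exact sign-flip permutation p below 0.25, which is the value of each. On the deposited scale the order of alpha and beta depended on the summary. The median log2(RPKM + 1) was 4.61 ± 0.03 for gamma, 0.24 ± 0.04 for beta and 0.34 ± 0.06 for alpha, against 0.85 ± 0.0045 for all protein-coding genes. The median beta gene thus lay below the median alpha gene while the beta sum was higher. With reads that can be common to a cluster left out, on the variable-exon scale described below, the medians were 0.239 for beta and 0.0483 for alpha. The log2 ratio of member sums on that scale was 1.40 ± 0.17 for gamma over beta and 4.19 ± 0.23 for beta over alpha.

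In the gamma cluster the deposited levels were nearly uniform. Pcdhgb6 was highest, with 24.4, 25.3 and 25.6 RPKM (25.1 ± 0.641). Its neighbour on the chromosome, Pcdhga10, had 24.2, 25.1 and 25.1 RPKM (24.8 ± 0.533). These levels overlapped, so the order of this pair is not resolved. Pcdhga5 had 23.6, 24.5 and 24.3 RPKM (24.2 ± 0.512), and Pcdhgb7 had 23.4, 24.3 and 24.2 RPKM (24.0 ± 0.490). Pcdhgc4, the C-type member, which in mice is required for the survival of many neurons, had 19.1, 19.7 and 19.8 RPKM (19.5 ± 0.366). Pcdhgb5 was the lowest, with 16.4, 16.9 and 16.7 RPKM (16.7 ± 0.267). The largest share of the summed RPKM of all 44 members, that of Pcdhgb6, was 7.87% ± 0.0601. Reads common to the gamma members can hold this share down. On the variable-exon scale described below Pcdhgb6 held 12.7% ± 1.48, and with all rows by identifier Pcdhgc3 held 43.3% ± 2.28.

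The inferred reads of the 14 gamma members lay within a factor of 1.08 of each other in every library, although their gene models ranged from 4664 to 6733 bases. Their deposited level was lower the longer the gene model (Pearson r = -0.97 and Spearman rho = -0.93 across the 14 genes, which share the constant exons and the libraries; a description with no test). The lowest row of the cluster held 3045, 3609 and 3549 reads, and the reads common to all rows can number no more than that. These reads amounted to 96.5% ± 0.829 of the reads of the median gamma member. If each row counts every read of the constant exons, they cap the level of the gamma constant exons at 49.98, 51.7 and 52.4 RPKM (51.4 ± 1.26), with 95% Poisson bounds of 48.2 to 51.8, 50.1 to 53.5 and 50.7 to 54.2. In RPKM all 14 gamma members were lowest in library 1, as was the lowest row itself. They cannot be taken as 14 separate observations where reads are common to them. The order of the libraries depends on the scale. Pcdhb22, for example, was lowest in library 1 in RPKM (1.07, 1.21 and 1.16) but highest there in TPM (0.415, 0.406 and 0.389). The same rescaling of each library also puts the gamma members highest in library 1. How the authors' counting treated shared exons is not given in the sources used here.

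The reads of each gene alone were therefore taken as those above the lowest row of its cluster, per kilobase of its variable exon and scaled to the library total. This variable-exon level leaves out as many reads as the lowest row has of its own, and includes reads over bases that other genes overlap. The scale was chosen after the data were seen. On it 6 of the 14 gamma members (Pcdhga5, Pcdhga7, Pcdhga10, Pcdhgb2, Pcdhgb6 and Pcdhgb7) were at 1 or more in every library, so that 8 of the 44 members were, the other 2 being Pcdhb17 and Pcdhb22. The background share of 47.4% belongs to the deposited scale and was not computed on this one.

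Pcdhgb6 and Pcdhga10 again led the members. Pcdhgb6 had 246, 294 and 296 reads above the lowest row, a variable-exon level of 3.33, 3.47 and 3.60 RPKM (3.47 ± 0.137). Pcdhga10 had 251, 303 and 259 such reads, a level of 3.33, 3.51 and 3.09 RPKM (3.31 ± 0.211). The pair did not differ beyond its spread, and the lowest value of either exceeded the highest value of each other member, since the next members were Pcdhgb2 at 1.80, 2.05 and 1.76 RPKM and Pcdhgb7 at 1.81, 2.02 and 1.23 RPKM. A long noncoding RNA gene on the other strand, Gm26672, overlaps 2613 bases of Pcdhga10 and was given 23, 42 and 13 reads of its own. The means of the other 12 members ran from 0.0449 to 1.87 RPKM. Pcdhga5 had the largest SD, with 1.65, 1.97 and 1.03 RPKM (1.55 ± 0.475), lowest in library 3. Pcdhga4 (0.732 ± 0.0815) and Pcdhgb1 (1.28 ± 0.246) share 1038 bases outside the constant exons, so their reads are not separate. Pcdhgc4 had 36, 17 and 1 reads above the lowest row (0.172 ± 0.176 RPKM). Pcdhga1 was itself the lowest row in libraries 1 and 2 and stood 14 reads above it in library 3. For Pcdhgc4 and Pcdhga1 a deposited level near 20 RPKM thus stood beside few or no reads above the lowest row.

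**Figure D2:**
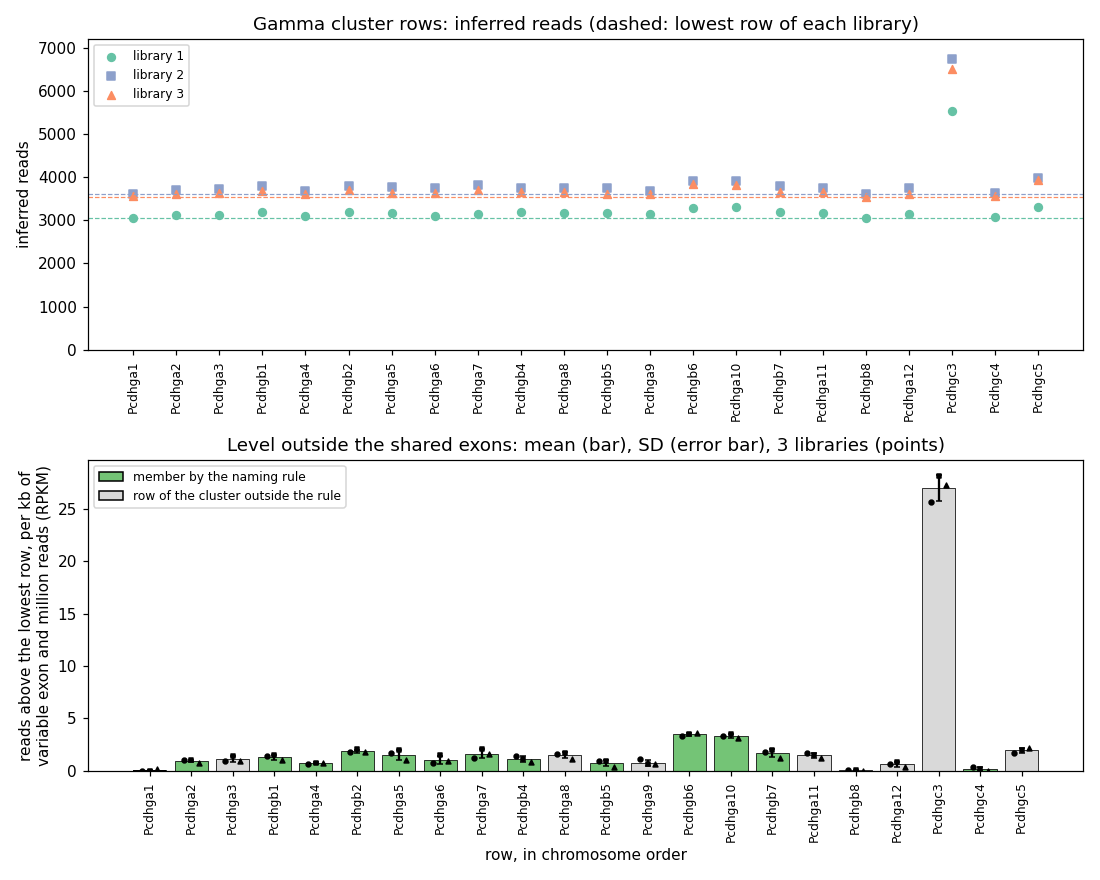
Upper panel: inferred reads (vertical axis) of the 22 gamma rows in chromosome order, with a symbol for each of the 3 libraries and a dashed line at the lowest row of each library. Lower panel: reads above that line per kilobase of variable exon in RPKM (bar, mean; error bar, SD; points, libraries), members in green and rows outside the naming rule in grey; Pcdhgc3 stands at 27.0 RPKM and every other row at 3.47 or below.

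The type A and type B gamma members gave opposite orders on the 2 scales. The deposited log2 ratio of the sum of the 7 A genes over that of the 6 B genes was 0.33, 0.34 and 0.34 (0.34 ± 0.01), and on the variable-exon scale it was -0.31, -0.03 and -0.08 (-0.14 ± 0.15), within its SD of 0. The exact two-sided sign-flip permutation p is 0.25 for both, the smallest that 3 libraries can give. With all 12 A and 7 B rows of the cluster it was 0.53 ± 0.07 on the variable-exon scale. These sums follow the number of genes of each type, and the median variable-exon level of the members was 1.15 ± 0.298 RPKM for type A and 1.48 ± 0.328 RPKM for type B.

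A gamma gene outside the naming rule had more variable-exon reads than any member. Pcdhgc3 (chr18:37806364-37841873, named PCDHGB6 in the table) is a C-type gene whose product is known in mouse neurons to promote dendrite branching and to inhibit Wnt signalling. Its deposited level was 34.97, 37.2 and 36.9 RPKM (36.4 ± 1.21), from 5538, 6742 and 6496 reads. The reads above the lowest row numbered 2493, 3133 and 2947, a variable-exon level of 25.6, 28.1 and 27.2 RPKM (27.0 ± 1.27). That was 7.69, 8.09 and 7.56 times the level of Pcdhgb6 (log2 ratio 2.96 ± 0.05), which was next by mean, although Pcdhga10 was next in libraries 1 and 2, and 52.3% ± 2.97 of all the reads that gamma rows had above the lowest. Windows of 50 bases found in 10 or more rows, such as those of the constant exons, were left out of the comparison of sequence. Of the remaining windows of Pcdhgc3, 0.0292% occur in another row of the clusters. An antisense gene, BC037039, overlaps 1559 bases of it and had 65, 77 and 69 reads of its own. Pcdhgc5, whose model contains a retained intron, had a variable-exon level of 1.95 ± 0.209 RPKM, and Pcdhgb8 had 0.0463 ± 0.0487 RPKM.

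Added over all 22 gamma rows, the variable-exon levels came to 53.0, 58.3 and 50.9 RPKM (54.1 ± 3.81), against the cap of 51.4 ± 1.26 RPKM on the level of the constant exons. The difference was 3.02, 6.57 and -1.48 RPKM (2.70 ± 4.04), within its SD of 0, although the sums of libraries 1 and 2 exceeded the upper Poisson bounds of the cap. The 14 members made up 19.6 ± 2.40 RPKM of this sum. On the variable-exon scale the log2 ratio of gamma over beta sums was 1.40 ± 0.17 for members and 2.87 ± 0.10 for all rows by identifier, against 5.39 on the deposited scale.

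The beta genes share no constant exon, so a beta level rests on the reads of that gene, apart from overlapped bases and similar sequence. The 2 members detected on the RPKM scale were near the end of the cluster. Pcdhb17 (chr18:37484795-37489454) had 1.72, 1.47 and 1.44 RPKM (1.54 ± 0.154), from 231, 226 and 215 reads. Pcdhb22 (chr18:37517871-37524479), the last gene of the cluster, had 1.07, 1.21 and 1.16 RPKM (1.15 ± 0.0718), from 203, 263 and 246 reads. Pcdhb16 had 0.791, 0.935 and 0.921 RPKM (0.882 ± 0.0793) and Pcdhb20 had 0.732, 0.597 and 0.702 RPKM (0.677 ± 0.0711). These 4 genes did not overlap in their values over the 3 libraries, so their order was the same in each. Pcdhb22 and Pcdhb21 share 455 bases, and their reads over these cannot be told apart.

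Few of the 22 beta genes carried most of the cluster's level. The highest 2 genes held 36.5% ± 1.10 of the beta sum, the highest 4 held 57.7% ± 0.662, and the highest 8 held 81.0% ± 1.83. By mean RPKM, 2 genes were at 1 or more, 3 were from 0.5 to 1, 9 from 0.1 to 0.5 and 8 below 0.1. Pcdhb1, the first gene of the cluster, had the lowest level, with 0, 0.0117 and 0 RPKM, which is 1 read in library 2. Pcdhb4 and Pcdhb6 were at 0 in library 1 only, with 3 and 5 and with 3 and 3 reads in the other libraries. In all, 5 beta genes had 3 or fewer reads in some library, and 3 of these had so few in every library.

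The level of the beta genes was higher toward the end of the cluster nearest to gamma. Across the 22 genes the mean level was higher the later the gene along the chromosome (Spearman rho = 0.71, Pearson r = 0.68), given as a description, since the genes share the libraries and similar sequence. The first 13 genes, Pcdhb1 to Pcdhb13, lay between 0.00391 and 0.350 RPKM (median 0.0802), and the last 9, Pcdhb14 to Pcdhb22, between 0.184 and 1.54 RPKM (median 0.549). This division was made after the values were seen. The highest of the first 13 was Pcdhb5, at 0.334, 0.309 and 0.407 RPKM (0.350 ± 0.0507). Windows of 50 bases found in 10 or more cluster rows were left out here too. Of the other windows in a beta gene, a median of 4.26% (0 to 11.99%) occur in another cluster row. A read there cannot be placed with certainty.

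**Figure D3:**
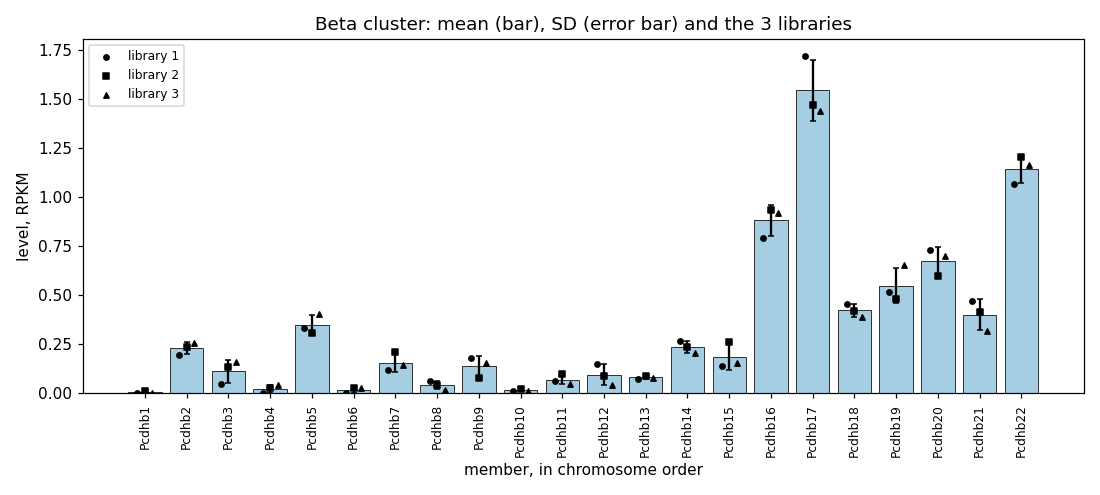
Level in RPKM (vertical axis, from 0) of the 22 beta genes in chromosome order (bar, mean; error bar, SD; points, the 3 libraries). The first 13 genes stay at or below a mean of 0.350 RPKM, and Pcdhb17 and Pcdhb22 exceed 1 RPKM in every library.

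The alpha genes were low, and few of their reads stood above those of the lowest row. The 8 members had 33 to 69 reads in a library, of which up to 46, 49 and 33 can be common to every row of the cluster. On the same reasoning these reads cap the level of the alpha constant exons at 0.559, 0.520 and 0.361 RPKM (0.480 ± 0.105), with 95% Poisson bounds of 0.409 to 0.745, 0.385 to 0.687 and 0.248 to 0.506. All 8 members were lowest in library 3, as was the lowest row of the cluster. The gene called Pcdha10 in the table, to which GENCODE M21 gives the symbol Pcdha11, was highest, with 0.363, 0.391 and 0.292 RPKM (0.348 ± 0.0511). It had 10, 20 and 17 reads above the lowest row, a variable-exon level of 0.198 ± 0.0534 RPKM. No other alpha member had more than 5 such reads in any library.

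Pcdha5 had a deposited level of 0.334, 0.309 and 0.228 RPKM (0.290 ± 0.0552), Pcdha7 of 0.325, 0.301 and 0.193 RPKM (0.273 ± 0.0704), and Pcdha8 of 0.306, 0.295 and 0.205 RPKM (0.269 ± 0.0555). Pcdha9 was the lowest alpha member, with 0.299, 0.278 and 0.199 RPKM (0.259 ± 0.0529). The values of these 4 genes overlapped. Among the alpha rows outside the naming rule, Pcdhac2, which in mice is needed for the tiling of serotonergic axons, had 0.360, 0.422 and 0.419 RPKM (0.400 ± 0.0353). The reads of Pcdhac2 above the lowest row numbered 15, 33 and 46, a variable-exon level of 0.172, 0.331 and 0.475 RPKM with 95% Poisson bounds of 0.0963 to 0.284, 0.228 to 0.464 and 0.348 to 0.633. Pcdhac1, the other C-type gene of the cluster, had a deposited level of 0.261 ± 0.0541 RPKM and 2, 0 and 2 reads of its own. On the variable-exon scale the log2 ratio of beta over alpha sums was 4.19 ± 0.23 for members and 3.04 ± 0.14 for all rows. Added over all 14 alpha rows, the variable-exon levels exceeded the cap on the alpha constant exons by 0.265, 0.356 and 0.632 RPKM (0.418 ± 0.191), in every library and beyond the SD.

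On the deposited scale the median spread between libraries was somewhat above that of counting alone. Most gamma and alpha reads can be common to the rows of their cluster, so those members are not separate observations of it. The median SD of log2(RPKM + 1) was 0.030 for gamma, 0.051 for beta and 0.062 for alpha members, against 0.023, 0.047 and 0.046 expected from Poisson counting of the inferred reads. The variance was a median of 1.59, 1.19 and 1.87 times the counting variance. For the variable-exon reads of all 22 gamma rows this ratio was a median of 6.05 (0.423 to 19.7), and these reads also move with the lowest row of each library. The members with the largest SD were Pcdhb17 (0.09), Pcdhb19 (0.08) and Pcdha7 (0.08). Pcdhb17 was highest in library 1. Pcdhb19, with 0.516, 0.480 and 0.652 RPKM (0.549 ± 0.0908), was highest in library 3. Pcdha7 was lowest in library 3, as were all alpha members.

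Genes related to the clustered protocadherins were counted on the same detection rule, with 47.4% of protein-coding genes as the background. Of 12 non-clustered protocadherins, whose genes lie outside the clusters (Pcdh1 and Pcdh12 on the same chromosome) and have no cluster promoter, 5 were detected. The highest was Pcdh7 at 23.9 ± 0.248 RPKM, followed by Pcdh19 at 5.37 ± 0.0710, Pcdh18 at 3.68 ± 0.128 and Pcdh1 at 3.52 ± 0.249, and Pcdh8 was lowest at 0.0142 ± 0.00705. Pcdh7 thus had a deposited level similar to that of the gamma members, without a shared exon. Most reads of a gamma member can be common to its cluster, and the variable-exon means of the gamma members ran from 0.0449 to 3.47 RPKM.

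Transcripts for proteins that control promoter choice were mostly detected. All 11 looping and cohesin genes passed, with the cohesin subunits Rad21 at 34.4 ± 1.03 RPKM, Smc1a at 30.7 ± 0.423 and Smc3 at 18.4 ± 0.439, and the cohesin regulator Pds5a at 17.6 ± 0.282. Stag1, a further cohesin subunit, was lowest at 4.18 ± 0.156, and Ctcf, the DNA-binding factor that halts cohesin at the cluster promoters, had 8.80 ± 0.328. Of 11 genes for DNA methylation and silencing 9 were detected. Trim28, a corepressor, led at 35.6 ± 0.906 RPKM, with the maintenance methyltransferase Dnmt1 at 19.7 ± 0.549, its partner Uhrf1 at 10.2 ± 0.360 and the demethylating enzyme Tet3 at 7.07 ± 0.551. The members of this list below detection were Dnmt3b, the methyltransferase that methylates protocadherin promoters in mouse embryos, at 0.290 ± 0.0329, and Tet1 at 0.149 ± 0.0112. Smchd1, which in mice represses genes of the clusters, had 3.07 ± 0.123 RPKM.

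Genes for partners downstream of the cell surface were counted likewise. Of 6 cytoplasmic partners 5 were detected: the actin-binding kinase substrate Marcks at 51.2 ± 5.65 RPKM, the focal adhesion kinases Ptk2 at 21.1 ± 0.0823 and Ptk2b at 13.3 ± 0.443, which the intracellular domains are known to inhibit, the kinase Fyn at 15.8 ± 0.711, and Pdcd10. The receptor kinase Ret was lowest, at 0.173 ± 0.0440. All 7 shedding genes, whose enzymes cut protocadherins at the membrane, were detected, among them Adam10 at 30.5 ± 0.547 RPKM, Ncstn at 24.9 ± 1.10 and Psenen at 9.58 ± 0.510, with Aph1b lowest at 1.43 ± 0.0734. Of the 9 genes of the WAVE complex, an actin regulator that some protocadherins recruit, 8 were detected. Nckap1 had 41.6 ± 0.378 RPKM, Brk1 28.3 ± 3.45, Wasf2 20.4 ± 0.651 and Abi1 16.5 ± 1.08, and Cyfip2 was lowest at 0.198 ± 0.0367.

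Genes next to the clusters were mostly expressed. Of 11 neighbours 9 were detected, with the splicing factor Ik at 57.9 ± 0.0219 RPKM, the histidyl-tRNA synthetase Hars at 31.4 ± 1.54, Zmat2 at 23.9 ± 0.555 and the formin Diaph1 at 14.8 ± 0.339 highest, and Rell2 lowest at 0.168 ± 0.0538. Between the beta and gamma clusters lie the transcription factor subunit gene Taf7, at 2.07 ± 0.1003 RPKM, and the mitochondrial carrier gene Slc25a2, at 0.178 ± 0.0831 RPKM.

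**Figure D4:**
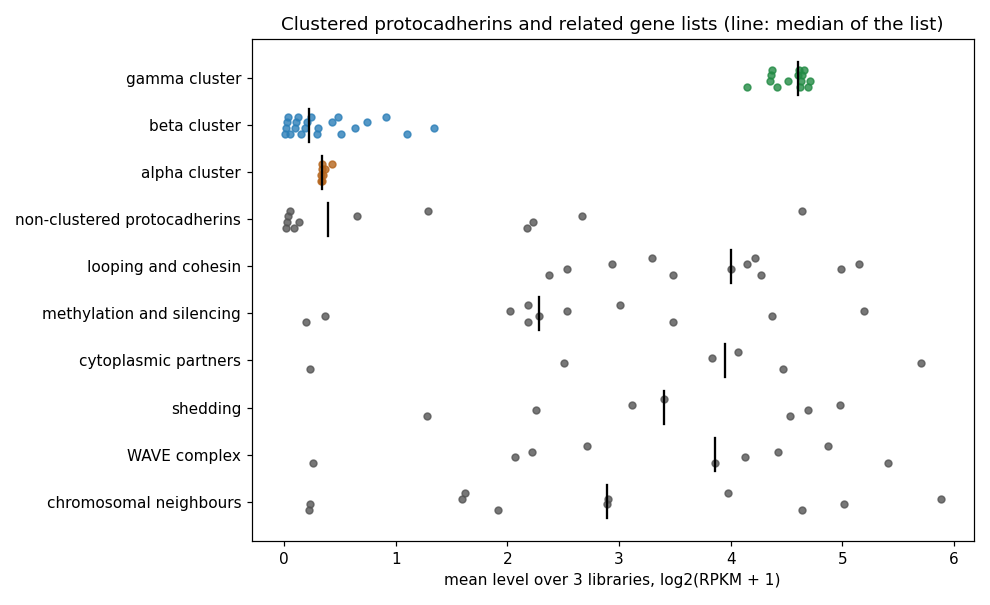
Mean deposited level over the 3 libraries on the log2(RPKM + 1) scale (horizontal axis) of the members of the 3 clusters and of 7 related gene lists (rows); each point is a gene and each vertical line the median of its list. The 14 gamma genes form a narrow group at the height of the upper cohesin, shedding and WAVE complex genes. Most of their reads can be common to the cluster, and their variable-exon means do not exceed 3.47 RPKM. The alpha and beta genes lie lower, with Pcdhb17 (1.35) and Pcdhb22 (1.10) the highest of them.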

How the data were processed

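RNA from 3 libraries was prepared with the miRNeasy kit and made into TruSeq V2 libraries, per the labels' protocols. The authors deposited a table of RPKM values on mm10, per the submitters' processing notes. Aligner, counter, annotation release and treatment of shared exons: not given in the sources used here. The members and gene lists were chosen with earlier results of these data known. All 43346 genes were read, and 42462 identifiers matched GENCODE M21, which supplied symbols, coordinates and exon lengths; the other 884 did not match.

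Library totals were inferred as the numbers that made RPKM times exon length (plus 1 base) closest to whole reads. With them 83.7%, 83.8% and 83.7% of 11896, 11855 and 12199 genes below 100 reads came within 0.05 of a whole number. Summed over all genes, the inferred reads came to 115.7%, 115.5% and 115.7% of the totals. The inference of totals was tested on simulated data. The separation of shared from variable-exon reads was run only on simulated rows that included a row with no reads of its own. That is the condition under which it holds, so the simulation cannot show its error where the lowest row has reads of its own. No count test was run, since there is no contrast. Intervals and floors cover counting error only.

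Medians and spreads used log2(RPKM + 1), a scale that compresses low genes. Ratios of cluster sums were tested by a two-sided exact sign-flip permutation test over libraries. The genes named were the 4 highest and the lowest of each cluster, the C-type genes, the 3 of largest SD, and the 4 highest and the lowest of each list; other genes were named after their values were seen, and 1 gene of the rule is not reported here. The alternatives were other thresholds, scales, filters, pseudocounts and centres and leaving out each library. Variable-exon levels and all rows by identifier were added after seeing the data. Computation used numpy 2.4.6, scipy 1.17.1, pandas 2.3.3 and matplotlib 3.10.9 under Python 3.11.15.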

Additional observations from a re-analysis of the deposited data

Results flagged for a closer look

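Groups of 3 libraries were not tested for outlying samples. Outside the cluster rows and the gene lists, 10 annotated genes of the region had more than 3 reads in every library, the limit that a count of 0 allows. Gm42416, called PCDHA4 in the table, averaged 16.3 RPKM, from 1270, 1620 and 1475 reads; its model starts within Pcdha4 in the alpha cluster and ends in the gamma constant exons, of which it covers 446 bases, while Pcdha4 itself had 50, 53 and 37 reads. Gm37013 averaged 17.3 RPKM, from 158, 173 and 178 reads, and Gm37388 averaged 12.6 RPKM, from 158, 173 and 177 reads; each starts in the alpha cluster and covers 91 bases of the gamma constant exons. Gm38182, a processed transcript within the gamma cluster, averaged 34.9 RPKM, from 1442, 1856 and 1719 reads, and covers 628 bases of those exons. BC037039, antisense to the start of Pcdhgc3, averaged 1.0199 RPKM, from 65, 77 and 69 reads. The snoRNA gene Gm24401, inside the gamma cluster and 91 bases long, averaged 4.67 RPKM, from 13, 6 and 21 reads. Of the others, Gm8242 averaged 0.427 RPKM, 3222401L13Rik 0.333 RPKM, Gm26672 0.119 RPKM and Gm10544 0.0519 RPKM. Whether these reads come from transcripts of these models was not tested.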

How the results depend on the processing

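No paired analysis was possible because all libraries belong to a single group. Leaving out each library in turn, which was run on the deposited scale only, gave 16 detected members, and the sums ranged over 307 to 313 for gamma, 7.36 to 7.39 for beta and 2.08 to 2.48 for alpha, and the log2 ratios over 5.38 to 5.41 (gamma over beta), 1.57 to 1.84 (beta over alpha) and 0.33 to 0.34 (gamma A over B).

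Rescaled to TPM, 14 members were detected, without Pcdhb17 and Pcdhb22. The gamma, beta and alpha sums were 109 ± 7.04, 2.60 ± 0.238 and 0.794 ± 0.206 and the median log2 levels 3.21, 0.0889 and 0.13. Without the highest member, the gamma and beta sums were 284 and 5.82. Members with a mean of 0.1 or more gave a beta sum of 7.03 and a beta median of 0.45. The difference of medians in place of the ratio of sums turned beta over alpha to -0.10. A pseudocount of 0.1 gave medians of 4.55 (gamma), -1.84 (beta) and -1.45 (alpha) and a median SD between libraries of 0.133, against 0.0391.

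On the variable-exon scale, 8 members were detected and the gamma and alpha sums were 19.6 and 0.408. The medians were 1.16 (gamma), 0.239 (beta) and 0.0483 (alpha), so beta was above alpha by median as well as by sum. Gamma A over B was -0.14, Pcdhgb6 held 12.7% of the total and the median SD was 0.0617. The log2 ratios were 1.40 for gamma over beta and 4.19 for beta over alpha. With all rows by identifier on the deposited scale, the gamma and alpha sums were 493 and 3.91 and the highest gene, Pcdhgc3, held 7.21%; 24 rows were detected and the ratios were 6.06 and 0.93. With both changes these were 54.1, 0.897 and 43.3%, the medians 1.16 (gamma) and 0.0396 (alpha) and the median SD 0.0665; 12 rows were detected and the ratios were 2.87 and 3.04. By construction, the variable-exon scale leaves out the reads that can be common to a cluster.

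The exon length that no other gene overlaps, planned as a divisor, was not run: shared reads cannot be divided by unshared length, and Pcdhga10 has hardly any such bases.

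Depth limits the alpha genes and many of the beta genes, which rest on few reads. Of the 22 beta genes, 7 had 50 or more reads in every library, and 5 had 3 or fewer in some library.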
